A study of Mus musculus with 100 samples.

Results

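The 10 genes of fatty acid uptake and glycerol release by the fat cell were followed here: Lpl, Lmf1, Gpihbp1 and Angptl4 of the lipoprotein lipase system, Cd36, Slc27a1, Fabp4, Fabp5 and Vldlr of fatty acid and lipoprotein uptake, and Aqp7 of glycerol release. The list goes by gene name and pathway role and uses no measured value. They are 10 of 32394 genes that could be matched to the transcripts in the deposited tables, and all 10 were measured and passed the filter on low values in every table.

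Fat cells do not take up triglyceride whole. Lipoprotein lipase, made by the adipocyte, folded with the help of LMF1 in the endoplasmic reticulum and carried to the inner face of the capillary by GPIHBP1 of the endothelium, splits the triglyceride of circulating lipoproteins, and ANGPTL4 inactivates it. The fatty acids set free enter with the help of CD36 and the transport protein encoded by Slc27a1 and are bound inside by the carriers FABP4 and FABP5, while glycerol set free by lipolysis leaves through the channel AQP7. Several of these genes are known targets of PPARγ, the nuclear receptor of the adipocyte, and GPS2, the protein deleted in this study, belongs to the corepressor complex built on NCoR and SMRT.

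The samples fall into 5 tables, each holding libraries of adipocyte Gps2 knockout and of wild type; the genotype stands in the titles alone, and one strain name, Adipoq-Cre-Gps2flox/flox, is given to every sample. Adipoq-Cre acts in adipocytes, so that endothelial, immune and stromal cells of knockout fat keep Gps2. The CD table holds intra-abdominal fat of mice aged 19 weeks on normal chow (3 knockout, 3 wild type). The HFD table holds intra-abdominal fat of mice aged 11 weeks on a high fat diet, for 4 weeks by the table name (4 and 4). The Epi table holds intra-abdominal fat at 19 weeks (3 and 3) and the Adipo table adipocytes isolated from intra-abdominal fat at 19 weeks (2 and 3), both on a high fat diet, for 12 weeks by the names of the tables. The BA table is of inguinal fat at 8 weeks (4 and 4); its name and the series text tie it to beta-adrenergic stimulation, the labels name no agent or dose, and no unstimulated inguinal fat was analysed here.

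Summed over 1 transcript per gene, the reads recovered from the deposited signal lay between 29365883 and 63284012 in each replicate. Full-length Gps2 transcript was not lower in knockout (for example 390.4 ± 42.7 normalised reads in HFD knockout and 388 ± 27.1 in HFD wild type, SD, n = 4 each), and since the labels do not say which exons were deleted, this checks nothing and the genotype is always that of the label. The labels do not tie replicates to separate animals; p-values therefore rest on the spread among these samples alone, which may be technical. Genes typical of the epididymis were high in 5 whole-fat samples, with summed levels of 168885 and 156741 normalised reads in CD knockout 1 and 2, 115614 and 35029 in Epi knockout 2 and 3 and 43748 in CD wild type 2, and at most 640 in each of the others. Adipocyte markers were present throughout and their sum was lowest within CD in wild type 2 (177530). In bulk samples, fewer cells of a type and less RNA per cell cannot be told apart.

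Levels per length were compared first, as TPM (reads per length, scaled to a common total) computed over the chosen transcript of each gene. Fabp4 was the highest of the 10 in every table. In wild-type Epi fat it stood at 36495 ± 4699 TPM (SD, n = 3), the highest mean of all genes, and it was also first in CD, HFD and Adipo wild type and at rank 3 in BA wild type. Lpl followed with 8192 ± 657 TPM, and then Cd36 with 3559 ± 558 TPM. Angptl4 (755 ± 185 TPM) and Fabp5 (651 ± 66.0 TPM) came next, and did not differ beyond their spread. Gpihbp1 (439 ± 60.8 TPM) and Slc27a1 (353 ± 170 TPM) overlapped as well. Aqp7 had 188 ± 19.4 TPM, Vldlr 65.1 ± 13.3 TPM and Lmf1 33.5 ± 6.56 TPM. The 10 genes together held 2.91% to 3.79% of all normalised reads in Epi knockout and 3.59% to 4.21% in Epi wild type.

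**Figure D1:**
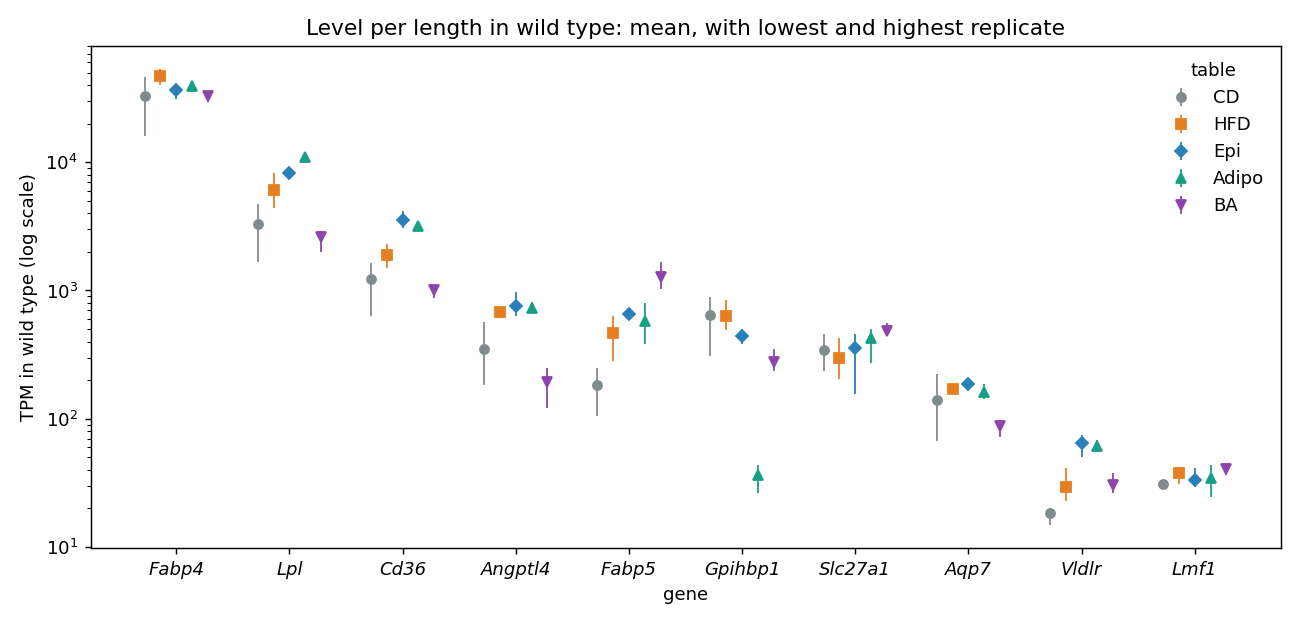
Level per length (TPM, log scale) of the 10 genes in wild type, ordered by their mean in the Epi table; each point is the mean of a table and its line runs from the lowest to the highest replicate. Fabp4 stands highest in every table, and Gpihbp1 falls to 36.2 TPM in isolated adipocytes while Fabp5 is highest in BA.

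The order was not the same in all tables. In wild-type BA fat Fabp5 stood at rank 3 of the 10 with 1278 ± 268 TPM, while Angptl4 (192 ± 53.5 TPM) and Lpl (2609 ± 434 TPM) were at their lowest; the tables differ in depot, age and treatment, so that these cannot be told apart. Isolated wild-type adipocytes differed from wild-type whole fat of the same age in 1 gene above all. The TPM of Gpihbp1 in adipocytes was 0.0825 times that of whole fat, close to the 0.0578 times of the endothelial gene Pecam1, whereas the other 9 lay between 0.855 times (Aqp7) and 1.34 times (Lpl). These ratios set levels of separately normalised tables side by side and were not tested.

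Knockout was compared with wild type within each table by limma on log2(normalised reads + 1), with Benjamini-Hochberg adjustment over all genes tested. A gene is said to have passed where its adjusted p was under 0.05. In CD none of the 10 passed, where 0% of 15574 genes did. In HFD 1 of the 10 passed and fell (Aqp7), where 3.47% of 14015 genes passed, 2.46% falling and 1.01% rising (with TMM scaling, another way of setting libraries on 1 scale, 314 fell and 217 rose, against 345 and 141). In Epi none of the 10 passed, where 0% of 17632 genes did. In Adipo none passed, where 0.634% of 14191 genes did, 0.543% rising and 0.0916% falling, and in BA none passed, where 0.0323% of 12396 genes did. Before adjustment, 1497 genes had p under 0.05 by limma in CD and 1624 in Epi. In both, edgeR on recovered reads called 0, and DESeq2 called 938 and 533. DESeq2 called 1467 of 14015 genes in HFD, 1799 of 14191 in Adipo and 270 of 12396 in BA. In every table it called more genes than limma did.

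The median log2 fold change of the 10 genes was 0.22 in CD, beside 0.11 over all genes tested. It was -0.09 in HFD (all genes -0.09), -0.28 in Epi (-0.03), -0.10 in Adipo (-0.04) and 0.41 in BA (0.01). In CD, TMM scaling moved the median of all genes to -0.00, so that the CD fold changes below stand against a common shift of 0.11. Of the 10 genes, 9 had a higher knockout value in CD, but 8 with TMM scaling, 6 by edgeR and by DESeq2 and 2 without wild type 2, where the median was -0.17. By mean TPM 2 of the 10 were higher in CD knockout, Lpl and Fabp4. A higher knockout value was found for 3 in HFD (5 with TMM scaling); there were 4 such genes each in Epi and Adipo and 7 in BA, with either scaling.

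**Figure D2:**
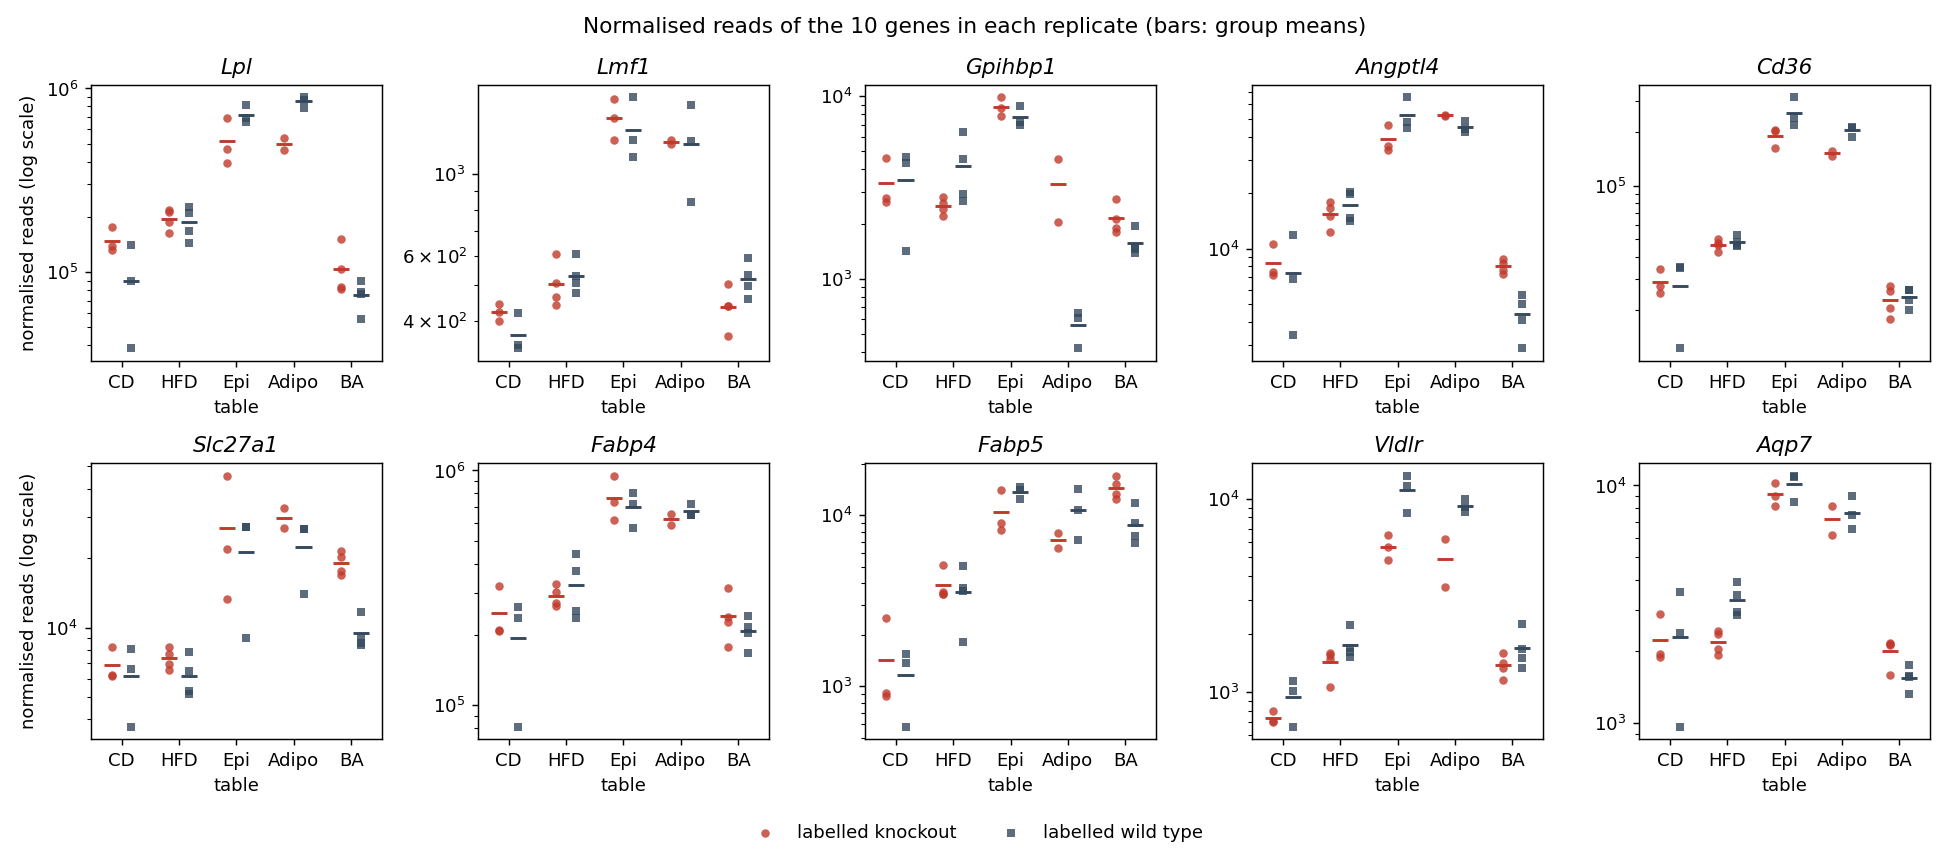
Normalised reads (log scale) of each of the 10 genes in every replicate, knockout (red circles) left of wild type (dark squares) in each of the 5 tables; short bars are group means. The tables do not share a scale. Groups do not overlap for Aqp7 in HFD (knockout lower), for Slc27a1, Angptl4 and Fabp5 in BA (higher) and for Cd36 and Vldlr in Epi (lower). In Adipo they do not overlap for Gpihbp1, Angptl4 and Slc27a1 (higher, Slc27a1 only narrowly) and for Lpl, Cd36 and Vldlr (lower).

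**Figure D3:**
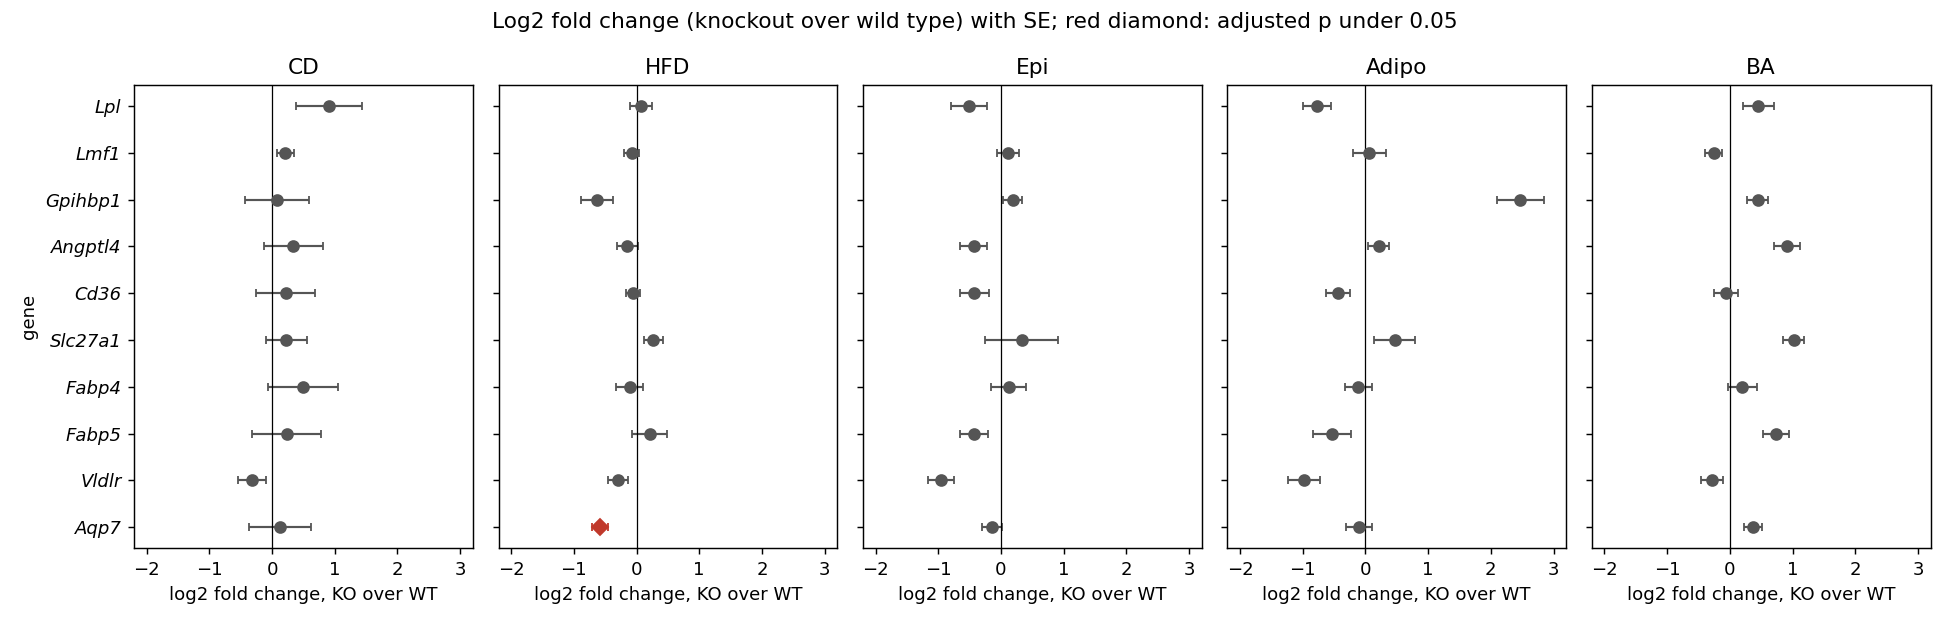
Log2 fold change of knockout over wild type with its standard error for the 10 genes, 1 panel for each table. The red diamond marks the only value with an adjusted p under 0.05, Aqp7 in HFD at -0.58; Vldlr lies left of 0 in all 5 panels.

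The lipase itself, Lpl, was not separated by genotype in whole fat in normalised reads. In HFD it had 187574, 163012, 218030 and 212049 normalised reads in knockout, against 144082, 227371, 208826 and 167997 in wild type, which overlap widely (log2 fold change 0.07 ± 0.18 SE, 95% interval -0.33 to 0.48, limma adjusted p = 0.837). In isolated adipocytes both knockout samples, at 538089 and 459488, lay below the 3 wild-type samples, at 892970, 784165 and 870245. The mean of knockout was 0.587 times that of wild type there (-0.77 ± 0.23, adjusted p = 0.129 by limma and 2.81e-05 by DESeq2). In Epi fat of the same age knockout had 691641, 394251 and 466858 and wild type 658755, 807589 and 686959. The 2 lower knockout samples there, 2 and 3, are those with epididymis genes, and without them the log2 fold change was -0.05, which rests on 1 knockout sample. As TPM, which were not tested, Epi knockout was lower without overlap, at 4851 to 6393 against 7546 to 8859 in wild type. The share of all genes without overlap was not computed as TPM. In CD fat the sign was positive, with 138115, 131195 and 176119 in knockout and 89543, 38375 and 139954 in wild type, which overlap through wild type 3. The mean of knockout was 1.66 times that of wild type there (0.91 ± 0.53, adjusted p = 0.569), with 0.40 to 1.33 over the fits that leave out 1 replicate. In BA 2 of 4 knockout samples lay above all wild types (0.46 ± 0.25, adjusted p = 0.652).

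Lmf1, which is needed for lipase to fold, did not separate by genotype in normalised reads. It varied within groups, most widely in Adipo wild type, from 840 to 1548 normalised reads. The means of Lmf1 in knockout and wild type were 505 ± 73.9 and 530.0 ± 57.2 normalised reads in HFD (SD, n = 4 each) and 435 ± 57.3 and 520.1 ± 58.1 in BA. In normalised reads the groups overlapped in all 5 tables, and the log2 fold changes lay between -0.26 (BA) and 0.21 (CD), the lowest limma adjusted p being 0.606; in HFD the sign turned with TMM scaling (0.012). As TPM, a different scale, Lmf1 was lower in knockout without overlap in BA, at 31.2 to 33.6 against 36.3 to 42.5 in wild type, and in CD, at 27.0 to 28.6 against 29.4 to 32.1, where the sign is the opposite of that in normalised reads. The TPM were not tested, and how many of all genes had no overlap on that scale was not computed.

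Gpihbp1, the carrier of lipase on the capillary endothelium, gave the largest difference of the set, in isolated adipocytes. It had 4528 and 2062 normalised reads in knockout, against 615, 416 and 655 in wild type. The groups do not overlap, knockout 1 is well above knockout 2, and the mean of knockout was 5.86 times that of wild type (2.47 ± 0.37, limma adjusted p = 0.0629). The value passed by edgeR (adjusted p = 0.0415), by DESeq2 (2.15e-09) and with TMM scaling (0.0460 by limma). In the whole fat of the Epi table knockout had 9847, 7760 and 8620 and wild type 8810, 6994 and 7249 normalised reads, which overlap (0.19 ± 0.15, limma adjusted p = 0.727). The difference between these effects, Adipo minus Epi, passed at 2.28 ± 0.41 (limma adjusted p = 0.0280); 1.66% of 14118 genes passed, 1.63% with a positive and 0.0354% with a negative difference. In 9 of 11 fits with 1 replicate left out it no longer passed, at adjusted p up to 0.0801.

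Endothelial genes moved with Gpihbp1 in the isolated adipocytes. The summed level of 11 endothelial markers was 48440 and 20399 normalised reads in knockout, against 5196, 2979 and 5585 in wild type. All 11 were higher in knockout, with a median log2 fold change of 2.81, and none of the 11 was at 0; no marker passed on its own. Other cell types differed there too. All 5 mesothelial markers were higher in knockout (median 2.03), with sums of 919 to 1375 in knockout and 122 to 591 in wild type. Of 9 macrophage markers 8 were higher (median 0.64; sums of 5750 to 11510 in knockout and 3163 to 20272 in wild type), and all 5 brown and beige markers tested were lower (median -1.53). The part of these markers in the Gpihbp1 result was not tested. In Epi fat the sums were 76609 to 89912 in knockout and 73371 to 91279 in wild type. Of the 11 markers 8 passed in the difference Adipo minus Epi, for example Cdh5 (2.85 ± 0.46, limma adjusted p = 0.0219), and so did Aqp1, a water channel of endothelium (2.68 ± 0.49, adjusted p = 0.0310). Relative to the mean of the markers within each library, Gpihbp1 was lower in knockout adipocytes (log2 ratio 0.45 ± 0.09, n = 2) than in wild type (0.75 ± 0.15, n = 3), with an exact two-sided permutation p = 0.1, the smallest that 2 against 3 samples allow. The 3 genes whose deviations from the group means were most like those of Gpihbp1 over 33 replicates were Egfl7 (r = 0.961), itself on the marker list, Cd300lg (0.946) and Sept4 (0.937).

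**Figure D4:**
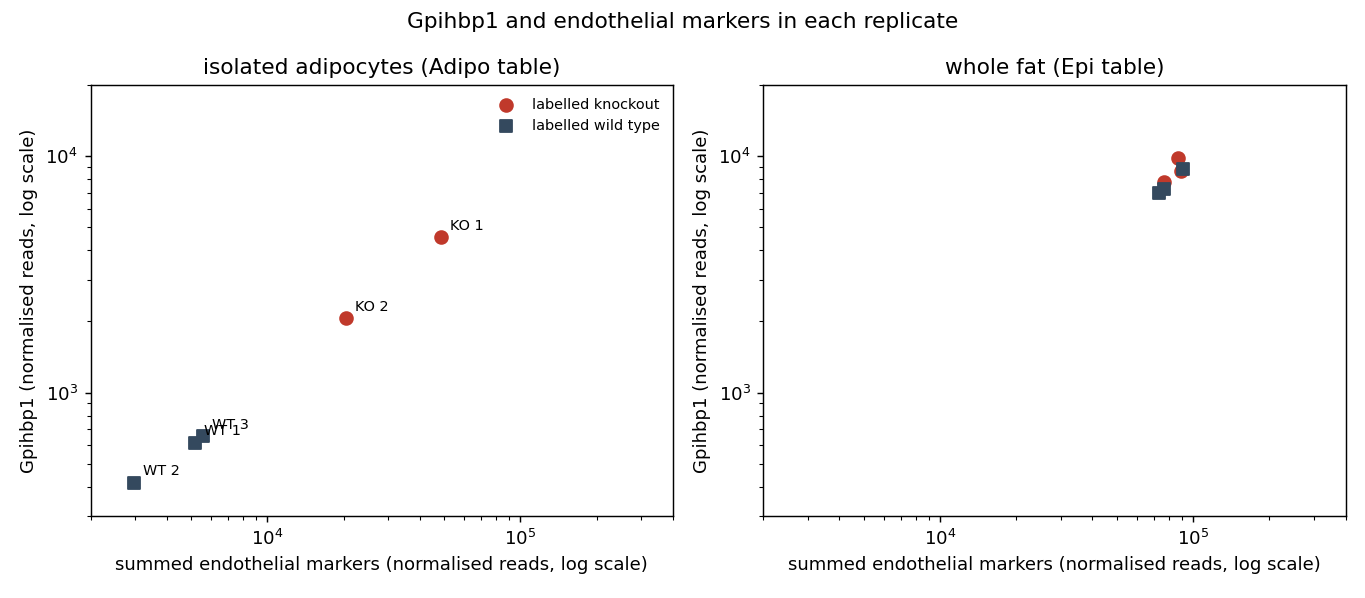
Gpihbp1 against the summed level of 11 endothelial markers (both in normalised reads, log scales) in each replicate of isolated adipocytes (left) and whole fat (right). The 2 knockout adipocyte samples lie above the 3 wild types on both axes, from 20399 upward against at most 5585 summed marker reads, whereas the whole-fat samples of both genotypes lie together.

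In HFD fat Gpihbp1 pointed the other way. It had 2215, 2414, 2808 and 2594 normalised reads in knockout, against 2668, 2903, 4560 and 6403 in wild type. Wild type 3 and 4 stood well above the rest, and the groups overlap through wild type 1 (-0.63 ± 0.25, limma adjusted p = 0.196). Endothelial markers summed to 18499 to 22742 in knockout and 19688 to 33147 in wild type, with 10 of 11 lower in knockout. Without wild type 3 and 4 the log2 fold change of Gpihbp1 was -0.16. In BA it was higher in knockout, with 1800.3, 2141, 1898 and 2752 against 1459, 1942, 1392 and 1493 in wild type (0.44 ± 0.17, adjusted p = 0.451).

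Angptl4, the inhibitor of lipase and a classical target of PPAR receptors, stood out in BA. It had 7330.1, 8774, 7684 and 8318 normalised reads in knockout, against 4103, 5608, 2885 and 5023 in wild type. Every knockout sample lay above every wild type, with a mean 1.82 times as high (0.91 ± 0.21, limma adjusted p = 0.166, 0.192 by edgeR and 0.00298 by DESeq2). In isolated adipocytes knockout, at 52218 and 52529, also lay above wild type, at 42648, 44449 and 48843 (0.21 ± 0.17, adjusted p = 0.467). In Epi fat the order was the opposite in size, with means of 38888 ± 6854 in knockout and 52831 ± 11096 in wild type (SD, n = 3 each). The groups overlapped there in normalised reads (-0.44 ± 0.22, limma adjusted p = 0.582). Its ratio to Lpl within a library was -3.25 ± 0.17 on the log2 scale in knockout adipocytes and -4.23 ± 0.14 in wild-type adipocytes, without overlap (exact two-sided permutation p = 0.1). The exact permutation p for this ratio lay between 0.371 and 0.8 in the other 4 tables.

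In normalised reads, groups that did not overlap were thus found for 6 of the 10 genes in Adipo, where the small groups make that common. Gpihbp1, Angptl4 and Slc27a1 were higher in knockout, as were 20.7% of all genes tested, and Lpl, Cd36 and Vldlr lower, as were 27.3%. In BA 3 of the 10 were higher without overlap (Angptl4, Slc27a1 and Fabp5), where 3.27% of genes were, and none was lower, where 2.23% were. In Epi 2 were lower (Cd36 and Vldlr, where 9.15% of genes were) and none higher (7.3% of genes). In HFD 1 was lower (Aqp7, where 10% of genes were) and none higher (4.04% of genes). In CD there was none, where 12.4% of genes were higher and 4.51% lower without overlap. As TPM, Lpl, Angptl4, Fabp5 and Aqp7 in Epi were also lower in knockout without overlap. So were Gpihbp1 in HFD, Lmf1 and Vldlr in CD and Lmf1 in BA. The TPM were not tested, and the share over all genes was not computed on that scale. The number of genes apart as TPM is therefore not read as a result.

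Of the proteins that bring fatty acids into the cell, Cd36, the scavenger receptor at the surface, was level in HFD and BA. In HFD it had 42221, 47658, 50147 and 46269 normalised reads in knockout, against 45831, 52624, 48239 and 46730.1 in wild type (-0.05 ± 0.12, 95% interval -0.31 to 0.20, limma adjusted p = 0.808; 0.032 with TMM scaling). It was lower in both tables with 12 weeks of diet in their names. In isolated adipocytes it had 157754 and 146518 in knockout, against 215036, 189164 and 212365 in wild type, and in Epi fat 207124, 162273 and 203862 in knockout, against 220863, 313490 and 239667 in wild type. The groups do not overlap in either, and the mean of knockout was 0.740 times (Adipo) and 0.741 times (Epi) that of wild type, but no limma adjusted p was under 0.2 (0.233 and 0.614; DESeq2 gave 0.0233 in Adipo). Epi and Adipo samples of 1 number were taken as paired, from correlated deviations and not from the labels. These differences are therefore not read as independent.

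Slc27a1, the fatty acid transport protein that also activates fatty acids to their coenzyme A esters, gave the clearest separation in BA. It had 21479, 16826, 20218 and 17622 normalised reads in knockout, against 8576, 8427, 9071 and 11646 in wild type. The lowest knockout sample lay well above the highest wild type, and the mean was 2.02 times as high (1.02 ± 0.17, 95% interval 0.64 to 1.40). Its limma adjusted p of 0.0788 did not pass, nor did that of edgeR (0.102), whereas DESeq2 gave 6.77e-07. In Epi fat the gene varied within both groups, with 45480, 21964 and 13326 in knockout and 27257, 27369 and 8976 in wild type (0.33 ± 0.59, adjusted p = 0.888). Wild type 3 was the lowest there and also among the adipocyte samples, whose numbers were taken to pair with those of Epi. In adipocytes knockout had 32916 and 26890.5 and wild type 26685, 26727 and 13922 (0.47 ± 0.33, limma adjusted p = 0.411). Knockout 2 lay only just above wild type 1 and 2 there.

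The BA samples differed in markers too. Summed adipocyte markers lay between 319552 and 422642 normalised reads in knockout and between 206825 and 308237 in wild type, with all 9 higher in knockout and a median log2 fold change of 0.46. Markers of brown and beige fat ran the other way, from 13004 to 43855 in knockout and from 20239 to 96652 in wild type, with 5 of 6 lower. Skeletal muscle markers were high in knockout 3 and wild type 2 (2936 and 2862), and without these samples the log2 fold changes were 0.94 for Slc27a1, 1.06 for Angptl4 and 0.60 for Fabp5. The part of these markers in the results was not tested.

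Fabp4, the main fatty acid carrier of the adipocyte, did not separate by genotype in any table. Its log2 fold changes were 0.49 in CD, 0.20 in BA, 0.12 in Epi and -0.11 in both HFD and Adipo, with limma adjusted p from 0.764 to 0.915. Fabp5, the second carrier, is less certain, since 21.1% of its 50-base stretches also occur in transcripts of 5 other genes. In BA it had 17010, 13278, 15287 and 12379 normalised reads in knockout, against 7554, 6875, 11803 and 9016 in wild type. All 4 knockout samples lay above all wild types (0.74 ± 0.20, limma adjusted p = 0.247, 0.0336 by DESeq2). The log2 ratio of Fabp5 to Fabp4 was -4.03 ± 0.33 in BA knockout and -4.57 ± 0.31 in BA wild type (SD, n = 4 each, exact two-sided permutation p = 0.0857). In Epi it was -6.22 ± 0.23 and -5.67 ± 0.32 (n = 3 each, exact permutation p = 0.1, the smallest possible there). None of the 15 ratio tests passed after adjustment, the lowest adjusted p being 0.25 by exact permutation.

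Vldlr, a receptor that binds triglyceride-rich lipoproteins for the lipase, was lower in knockout in all 5 tables, and passed in none. Its log2 fold changes were -0.96 in Epi and -0.98 in Adipo, and smaller in BA (-0.28), HFD (-0.30) and CD (-0.32). In Epi fat it had 5649, 6455 and 4791 normalised reads in knockout, against 8436, 13127 and 11556 in wild type, without overlap (-0.96 ± 0.20, limma adjusted p = 0.340, 0.498 by edgeR and 0.00100 by DESeq2). With Epi knockout 2 and 3 left out, which carry epididymis genes, the value was -0.94, which rests on 1 knockout sample. In isolated adipocytes it had 3504.0 and 6204 in knockout, against 8527, 9078 and 9988 in wild type, again without overlap (-0.98 ± 0.26, adjusted p = 0.113, 0.0234 by DESeq2).

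Aqp7, the channel through which glycerol leaves the adipocyte, was the 1 gene of the set that passed within a table. In HFD fat it had 1928, 2434, 2377 and 2045 normalised reads in knockout, against 2855, 2942, 3446 and 3924 in wild type. The highest knockout sample lay below the lowest wild type, and the mean of knockout was 0.667 times that of wild type (log2 fold change -0.58 ± 0.13, limma adjusted p = 0.0453, 0.0379 by edgeR and 0.000219 by DESeq2). As TPM the wild-type samples lay close together, at 172, 173, 169 and 168, against 111, 120, 123 and 111 in knockout. The call is marginal: in 7 of 8 fits with 1 replicate left out limma gave an adjusted p of 0.0569 to 0.153, with log2 fold changes of -0.49 to -0.64 over all 8.

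Wild type 3 and 4 of HFD also stood apart in where reads lay along a transcript. The row of a 1900-base Lpl transcript that lacks the long last exon held 50.3% to 54.9% of the reads of the full-length row in the knockout samples. It held 49.96% and 48.0% in wild type 1 and 2, and 39.5% and 28.1% in wild type 3 and 4. In normalised reads Aqp7 was highest in those same 2 samples. As TPM they were the lowest of the wild types, at 169 and 168 against 172 and 173 in wild type 1 and 2. Without wild type 3 and 4, Aqp7 was still lower in knockout in normalised reads (-0.41 ± 0.12), with a limma adjusted p of 0.138. The part of the read positions in the Aqp7 result was not tested.

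**Figure D5:**
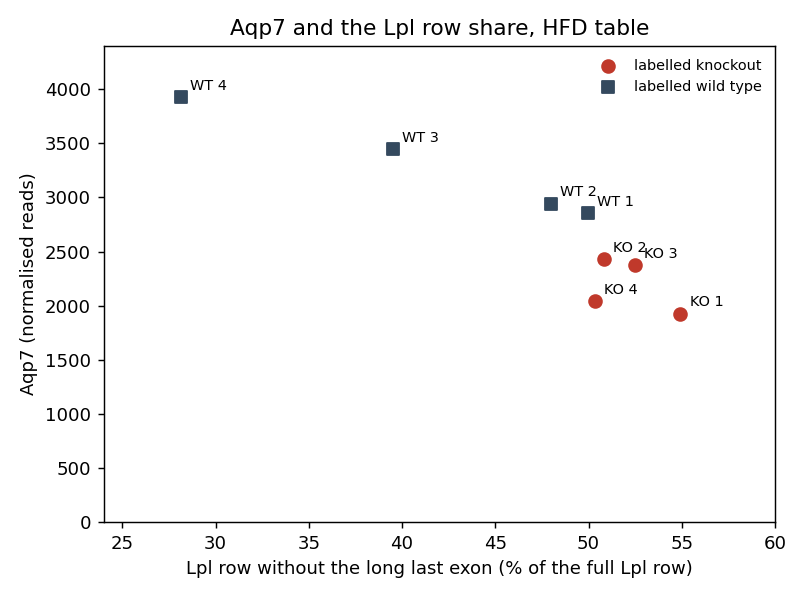
Aqp7 (normalised reads, axis from 0) against the share of the 1900-base Lpl row in the full-length Lpl row (percent) in each HFD replicate. The 4 knockout samples lie at or below 2434 normalised reads of Aqp7. The wild types lie at 2855 or more, the 2 with the lowest Lpl share being the highest. As TPM, not drawn here, those 2 are the lowest wild types.

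In BA fat the sign of Aqp7 was positive, with 1589.96, 2124, 2139.9 and 2177 normalised reads in knockout, against 1554, 1583, 1319 and 1750 in wild type (0.37 ± 0.15, limma adjusted p = 0.486). Knockout 1 stood apart from the other knockouts and overlaps with wild type. The difference of effects, BA minus HFD, passed at 0.95 ± 0.20 (limma adjusted p = 0.0487), where 0.38% of 12097 genes passed, 0.339% with a positive and 0.0413% with a negative difference. It did not pass in 13 of 16 fits with 1 replicate left out, at adjusted p up to 0.129. With TMM scaling it was 0.83 ± 0.19 and did not pass (adjusted p = 0.0749), and the genes that passed split into 27 positive and 12 negative, against 41 and 5. The tables differ in depot, age and treatment and were normalised separately. In the other 3 tables the log2 fold changes were 0.12 (CD), -0.14 (Epi) and -0.10 (Adipo), all with overlap in normalised reads. None of the 10 genes passed in the differences HFD minus CD, Epi minus CD and Epi minus HFD, where 0% of genes passed; before adjustment 2395, 1262 and 2399 genes had p under 0.05 by limma, and no other tool was run.

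Promoter sequence of Aqp7 is shown because Aqp7 is the gene that passed within a table. That of Cd36 is shown because it is the other promoter of the set with the same motif. Of the 10 genes 5 matched RefSeq's table of promoters on GRCm38.p6 (Aqp7, Cd36, Slc27a1, Lmf1 and Vldlr, with 9 start sites; the others were Lpl, Gpihbp1, Angptl4, Fabp4 and Fabp5). Each window runs from 250 bases before to 50 after a start site. Capitals mark AGGTCA, the core site that nuclear receptors such as PPARγ bind, or its reverse complement; both strands were searched, and matches do not overlap.
Aqp7, chr4:41047913-41048212, minus strand: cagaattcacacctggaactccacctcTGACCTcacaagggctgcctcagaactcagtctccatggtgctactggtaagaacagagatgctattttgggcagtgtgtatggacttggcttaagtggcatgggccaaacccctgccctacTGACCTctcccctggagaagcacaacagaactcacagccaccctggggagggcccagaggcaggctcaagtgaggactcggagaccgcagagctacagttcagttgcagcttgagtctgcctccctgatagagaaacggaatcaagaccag
Cd36, chr5:17835847-17836146, minus strand: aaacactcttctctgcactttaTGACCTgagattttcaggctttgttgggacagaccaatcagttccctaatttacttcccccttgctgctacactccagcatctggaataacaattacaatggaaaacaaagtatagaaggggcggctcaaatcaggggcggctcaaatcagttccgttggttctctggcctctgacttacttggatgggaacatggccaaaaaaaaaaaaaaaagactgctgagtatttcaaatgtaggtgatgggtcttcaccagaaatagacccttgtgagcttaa
The Aqp7 window holds 2 matches, which begin at positions -223 and -101 from its start site, and the window of the other Aqp7 start site, upstream and overlapping, holds the first of them. The Cd36 window holds 1, at position -228. The start site of the printed Aqp7 window lies 177 bases from the annotated end of the gene, and the other Aqp7 start site 3 bases. The Cd36 start site lies 52905 bases from the annotated end of Cd36. The windows were not matched to the transcripts measured. Among all 32851 promoter windows 16.3% hold at least 1 match, so that a match is common. A direct repeat of AGGNCA (N is any base) with 1 base between the copies occurs in 0.381% of windows and in none of the 9. These are matches of letters in these windows and say nothing about binding.

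Within groups, every pair of the 10 genes had a positive correlation. The same was not computed for pairs of other genes, so it is not known whether these are more alike than most. CD wild type 2, low for all 10 in normalised reads, enters every pair. Over 33 replicates, after subtracting group means, the correlation between pairs of them ran from 0.029 (Lmf1 with Vldlr) to 0.861 (Lpl with Cd36), and Angptl4 with Aqp7 reached 0.791. These deviations share library, depth and cell composition. Those of Aqp7 were most like those of Ucp3 (r = 0.894), Palmd (0.885) and Hspa12b (0.881). Those of Angptl4 were most like Cavin1 (0.858), Piezo1 (0.809) and Ffar2 (0.802), and those of Slc27a1 most like Nat8l (0.844), Acvr1c (0.839) and B3galt2 (0.819). For the others the closest genes were St13 and Ginm1 for Lpl (0.889 and 0.875) and Ptcd1, Urgcp and Iba57 for Lmf1 (0.846, 0.810 and 0.809). They were Sucnr1, Cav1 and Syap1 for Cd36 (0.890, 0.883 and 0.882) and Emc9, Clybl and Tmem120a for Fabp4 (0.926, 0.923 and 0.914). For Fabp5 they were Nudt7, Rnf144a and Pex16 (0.832, 0.831 and 0.822), and for Vldlr Sh3kbp1, Sepsecs and Smap1 (0.812, 0.803 and 0.781). In normalised reads CD wild type 2, with the lowest adipocyte markers of CD, was the lowest of the 6 CD samples for all 10 genes. As TPM this did not hold for Lmf1, where it was the highest (32.1). Nor did it hold for Vldlr, where it was above every knockout (14.7 against 11.0 to 11.4). For the other genes it did.

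Other genes of these pathways passed in HFD fat, and none of them passed in the other 4 tables. How these calls and those of the PPAR lists below fare with a replicate left out is not reported here. Over all genes 126 to 1168 then passed in HFD, against 486 in the main fit. Of 18 other genes of lipoprotein lipolysis that were tested 3 fell and none rose, where 2.46% of all genes fell and 1.01% rose. Hspg2, the heparan sulfate proteoglycan of basement membranes, averaged 8154 ± 891 normalised reads in knockout and 15102 ± 904 in wild type (SD, n = 4 each; -0.89 ± 0.11 SE, limma adjusted p = 0.00554). Apoc2, the apolipoprotein that activates lipase, averaged 37.8 ± 5.83 in knockout and 88.3 ± 21.5 in wild type (-1.18 ± 0.20, adjusted p = 0.0166), and Apoc1, which hinders lipolysis, 1857 ± 306 and 3309 ± 816 (-0.82 ± 0.19, adjusted p = 0.0491). Of 18 other fatty acid uptake genes 1 rose (1.01% of all genes did). This was Acsl1, which activates fatty acids inside the cell and averaged 43371 ± 5560 in knockout and 23392 ± 4068 in wild type (0.90 ± 0.16, adjusted p = 0.0202). None of 11 other genes of glycerol transport and handling passed.

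Among 15 PPAR receptors, partners and coregulators 2 rose and none fell in HFD, where 1.01% of all genes rose. Pparg itself averaged 3728 ± 189 normalised reads in knockout and 2422 ± 380 in wild type (0.63 ± 0.12, limma adjusted p = 0.0273), and the coactivator Ppargc1b 60.8 ± 6.67 and 24.6 ± 4.27 (1.28 ± 0.18, adjusted p = 0.00666). Among 15 other known PPAR targets none rose and 2 fell, where 2.46% of all genes fell. Pdk4, 1 of these and a kinase that holds back pyruvate oxidation, averaged 796 ± 39.3 in knockout and 1330.1 ± 159 in wild type (-0.73 ± 0.10, limma adjusted p = 0.00666). Acsl1, which rose, was on the list of fatty acid uptake and not on that of PPAR targets, so the counts depend on how the lists were drawn. The medians of the 5 lists in HFD lay between -0.22 and -0.05, beside -0.09 over all genes tested.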

How the data were processed

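Messenger RNA of mouse fat and isolated adipocytes was sequenced from libraries of a stranded mRNA kit, per the labels' protocols. The authors deposited, for each library, a signal per Ensembl transcript, namely reads divided by a size factor, in 5 separately normalised tables. Per the submitters' processing notes, the build was GRCm38.p4, and the tools named, without their roles, were STAR 2.4.0k, HTSeq 0.5.3, DESeq 1.8.3, SAMtools and bcl2fastq 2.17. Strand use in counting is not stated. Of 100 samples 99 were matched to a column by name; adipocyte knockout 3 was not analysed here, and 1 column matched no sample. In 96 libraries the signal divided by its smallest step was taken as recovered reads (100% of values of up to 1000 reads were whole within 0.01). The 4 libraries of each CD, HFD and BA replicate, which differed by about the sampling noise (chi-square per degree of freedom 1.04 to 1.10), were averaged to 1 replicate. The closest pair of replicates, CD knockout 1 and 2 (6.77; 18.7 and more in HFD), were kept as separate samples.

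Transcripts were matched to genes in GENCODE M21 (GRCm38), and the transcript of highest mean was taken for each gene. The deposited signal is not a count, so limma 3.58.1 (R 4.3.3; trended, robust moderation) was fitted to log2(value + 1). Genes entered with a mean of at least 10, the model held genotype alone, and p-values were adjusted by Benjamini-Hochberg over all genes, with 0.05 as threshold; fold changes on that scale understate those of low genes. Differences between tables were interactions in 1 fit. Ratios within a library had exact two-sided permutation tests, 15 in all. edgeR 4.0.16 and DESeq2 1.42.0 were run on recovered reads. For HFD knockout 2, HFD wild type 4 and BA wild type 4 these come from 3 libraries each, the other library not being recovered. Deviations from group means correlated between Epi and Adipo samples of the same number (r from 0.106 to 0.596), so the numbers were taken to pair them. For adipocyte knockout 2 (0.106) another Epi knockout sample correlated more. Blocking on the numbers, with Epi knockout 3 dropped for want of a partner, left the Adipo minus Epi call for Gpihbp1 as it was. Limma was tested on simulated data.

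The 10 genes, the other lists and the alternatives were chosen with earlier results of these data known. All 10 genes are reported in each table; from other lists, up to 4 genes that passed; and for each of the 10, the 3 genes of highest correlation among 9867 with a mean of 50 or more in every table; a gene that these rules select may be not reported here. The genes, by chromosome on GRCm38, are Lpl (8, 68880491 to 68907448), Lmf1 (17, 25579085 to 25662826), Gpihbp1 (15, 75596628 to 75599481), Angptl4 (17, 33773750 to 33781830), Cd36 (5, 17781690 to 17888801), Slc27a1 (8, 71568882 to 71587302), Fabp4 (3, 10204088 to 10208576), Fabp5 (3, 10012548 to 10016607), Vldlr (19, 27216484 to 27254231) and Aqp7 (4, 41033074 to 41048139). None of their chosen transcripts overlaps an exon of another gene.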

Additional observations from a re-analysis of the deposited data

Results flagged for a closer look

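For Gpihbp1 the difference between knockout and wild type was not the same in isolated adipocytes and whole fat. The difference of effects, Adipo minus Epi, was 2.28 on the log2 scale (limma adjusted p = 0.0280). It did not pass in 9 of 11 fits with 1 replicate left out, and 8 of 11 endothelial markers also passed in this difference. Aqp7 differed between inguinal fat of the BA table and HFD fat, with a difference of effects of 0.946 (limma adjusted p = 0.0487). This did not pass with TMM scaling, nor in 13 of 16 fits with 1 replicate left out.

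In 40 groups of 4 replicates, 2 samples stood far from the others; chance alone marks about 1 in 20 groups. Fabp5 in HFD knockout 3 was at 5126 normalised reads, against 3483 to 3583 in the other 3 knockout samples. Aqp7 in BA knockout 1 was at 1590 normalised reads (1589.96), against 2124 to 2177 in the others.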

How the results depend on the processing

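Of 1144 values of the genes under alternatives, 1045 kept their direction and side of the threshold, 37 no longer passed, 14 newly passed and 48 turned in sign. Those that turned belong to 21 results of at most 0.49 in size on the log2 scale. The ratios are not in these counts. The count of the 10 genes that passed in HFD was 0 without the trended and robust options of moderation, without a filter, with the replicate block, from libraries of leading number 4, without wild type 1 and knockout 1, and without wild type 3 and 4; it was 0 to 1 with a replicate left out. In Epi DESeq2 called 1 of the 10, where it called 533 of 17632 genes. In BA it called 3, where it called 270 of 12396 genes. In Adipo 1 of the 10 was called with TMM scaling (143 of 14190 genes) and with no filter (391 of 23436). The same count was given by edgeR (164 of 14191 genes) and the replicate block (1404 of 14191). DESeq2 called 4 in Adipo, where it called 1799 of 14191 genes. With a replicate left out the Adipo count was 0 to 1. For BA minus HFD the count was 0 with TMM scaling and with a pseudocount of 5, and 0 to 1 with a replicate left out, as for Adipo minus Epi. The cause was not tested. With a replicate left out, the ratio of Fabp5 to Fabp4 in BA ran from 0.38 to 0.67, and that of Gpihbp1 to endothelial markers from -0.50 to -0.26 in HFD and from 0.21 to 0.33 in BA.

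Signs turned in CD for Gpihbp1 (TMM -0.035, median-of-ratios -0.032, edgeR -0.14, DESeq2 -0.15), Cd36 (edgeR -0.0067, DESeq2 -0.011) and Aqp7 (edgeR -0.14, DESeq2 -0.14), and without wild type 2, knockout 1 and knockout 2 for Cd36 (-0.030) and Aqp7 (-0.015). In HFD they turned for Lmf1 (TMM 0.012, median-of-ratios 0.012, edgeR 0.013, DESeq2 0.014) and Cd36 (TMM 0.032, median-of-ratios 0.033, edgeR 0.027, DESeq2 0.029). Without HFD wild type 1 and knockout 1, Lpl was -0.027 and Fabp5 -0.038; without wild type 3 and 4, Lmf1 was 0.030, Angptl4 0.090 and Fabp4 0.26. Without Epi knockout 2 and 3, Fabp5 was 0.047 and Aqp7 0.032. Leaving out wild type 3 and 4 of HFD, knockout 2 and 3 of Epi, or wild type 2 and knockout 3 of BA was chosen after seeing the data. With 1 replicate left out, CD values ran from -0.47 to 0.38 (Gpihbp1), -0.13 to 0.77 (Angptl4), -0.29 to 0.47 (Cd36), -0.10 to 0.46 (Slc27a1), -0.049 to 0.80 (Fabp4), -0.26 to 0.50 (Fabp5) and -0.41 to 0.53 (Aqp7). HFD values ran from -0.043 to 0.18 (Lpl), -0.25 to 0.053 (Fabp4) and -0.087 to 0.41 (Fabp5), and Epi values from -0.0014 to 0.27 (Lmf1), -0.20 to 0.75 (Slc27a1) and -0.046 to 0.27 (Fabp4). Adipo values ran from -0.17 to 0.27 (Lmf1) and -0.30 to 0.11 (Aqp7), Cd36 in BA from -0.16 to 0.046, and Angptl4 over Lpl in Epi from -0.070 to 0.26.

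Knockout and wild-type numbers did not pair in any table, since not all same-numbered samples deviated together. With the replicate block the genes that passed numbered 269 in HFD (486 without), 1404 in Adipo (90 without) and 4 in BA, with 0 in CD and Epi. In the Adipo block wild type 3, which has no partner, adds nothing to the estimate; leaving it out with no block gave 718 genes, and Lmf1 was -0.17 in both fits. Over all alternatives that keep every replicate or name a set, between 0 and 938 genes passed in CD, between 269 and 1467 in HFD, between 0 and 533 in Epi, between 0 and 1799 in Adipo and between 0 and 270 in BA, the highest by DESeq2 each time. In CD, 645 genes passed without knockout 3.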
